A study of Mus musculus with 5 samples.

Results

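The genes described here were 10 genes of the cytosolic and endosomal RNA-sensing system, chosen by symbol, out of 55573 gene rows in the count table. Ddx58, Ifih1 and Dhx58 encode the RIG-I-like receptors, Tlr3, Eif2ak2, Zbp1 and Adar encode further proteins that bind double-stranded RNA or left-handed nucleic acid helices, and Mavs, Trim25 and Tbk1 encode the adaptor, a ubiquitin ligase and the kinase that pass the signal on. All 10 were found in the table. They were measured by poly(A)-selected, strand-specific RNA-seq in a mouse neuroblastoma line, Neuro-2A (N2A, ATCC CCL-131), transfected with 60 pmol of siRNA. The 2 siCtl libraries (replicates 1 and 3) came from cells given a commercial non-targeting siRNA (Silencer Negative Control #1), and the 3 siUpf1 libraries (replicates 1, 2 and 3) from cells given an siRNA against Upf1, an RNA helicase needed for nonsense-mediated mRNA decay (NMD). Every library thus came from cells that had received transfected short RNA, and no untransfected cells were analysed here. The design rests on 1 cell line and 1 siRNA against Upf1. The study describes its blots of the transfected cells as independent experiments, but the sources used here tie no library to one of them, so the p-values measure the spread between these libraries, which may be technical.

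RIG-I and MDA5 are helicases that recognise different features of foreign double-stranded RNA in the cytosol, RIG-I chiefly the ends and MDA5 long stretches, and both signal through MAVS on the mitochondrial surface to the kinases TBK1 and IKKε and the transcription factors IRF3 and NF-κB. TLR3 recognises double-stranded RNA in endosomes, PKR answers it by blocking translation initiation, and ADAR edits it so that it is less readily sensed. Many of these genes are themselves induced by interferon through the factor complex ISGF3, so a resting cell holds low levels of several of them and more after a response has begun.

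The siRNA sequences are shown because double-stranded RNA is what these proteins bind and because a short seed match can be compared with the members' own mRNAs. The strand given in the labels and its complement read, 5′ to 3′ and with bases 2 to 8 (the seed) in capitals:
Upf1 siRNA, labelled strand: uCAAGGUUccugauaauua
Upf1 siRNA, complementary strand: uAAUUAUCaggaaccuuga
None of the 10 members held the full 19-base target in its representative mRNA (the longest coding transcript in GENCODE M21). The representative mRNA of Upf1 holds the letters of the labelled strand, so the complementary strand is the one that pairs with it. The DNA letters that pair with the seed of the complementary strand, GATAATT, occurred in the 3′ UTRs of 3 of the 10 members, Ifih1, Mavs and Tlr3, and in 7.82% of the 20072 representative mRNAs. Those that pair with the seed of the labelled strand, AACCTTG, occurred in the 3′ UTR of 1 member, Trim25, and in 9.07% of all. With the match in capitals, the 4 stretches read:
Ifih1, bases 1477 to 1483 of its 2111-base 3′ UTR: aaggggatataGATAATTcaggatatcac
Mavs, bases 1209 to 1215 of 1236: agttttatcagGATAATTaaaagagttta
Tlr3, bases 513 to 519 of 1248: atagaataaaaGATAATTgcttttatggt
Trim25, bases 1125 to 1131 of 3572: gttgcttcaggAACCTTGctagatcacct
No member had either match in its coding sequence. These matches describe letters only. All 4 members with a match, 3 for the complementary strand and Trim25 for the labelled strand, were called lower in siUpf1 cells by DESeq2. Trim25 lost that call under 5 of 12 alternatives. Over all 15191 genes tested, 22.9% were called lower. The share among all genes with these matches was not computed, and whether the matches bear on the calls was not tested. Of the 6 members without a match in the 3′ UTR, Ddx58, Dhx58 and Tbk1 were lower in siUpf1 cells, Eif2ak2 and Adar were not called, and Zbp1 had too few reads for the main test.

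Between 20402205 and 27717594 reads per library were assigned to genes, and 28121 genes had a read. Normalised read counts, which are counts divided by DESeq2's median-of-ratios size factor of each library, are used throughout. Upf1, the targeted gene, had 5230 ± 18.1 normalised counts in siCtl cells (SD, n = 2) and 2449 ± 46.6 in siUpf1 cells (SD, n = 3), 46.8% of the control (log2 fold change -1.10, DESeq2 adjusted p = 7.09e-101). Of 12 neuroblastoma markers, 11 were detected well enough to be tested. The summed level of the 12 was 40802 and 41065 in the siCtl libraries and 46967 to 49879 in the siUpf1 libraries, and 8 of the 11 were called higher and 1 lower. The 7 macrophage markers summed to 45.3 and 46.1 counts in siCtl and 36.5 to 43.6 in siUpf1 libraries, most of it Cd68. Tyrobp was at 8.89 or less in each library, and Ptprc, Itgam, Adgre1, Aif1 and Csf1r at 4.72 or less. The 5 fibroblast markers, of which Pdgfra, Col1a1 and Dcn were above a mean of 10 and Col3a1 and Lum at 0, summed to 288 and 305 in siCtl and 215 to 254 in siUpf1 libraries. The 2 lymphocyte markers reached at most 2.83. What part these marker differences have in the members' values was not tested. In bulk RNA, fewer cells that express a gene and less RNA of it per cell cannot be told apart.

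DESeq2's Wald test called 7 of the 9 members that received an adjusted p-value lower in siUpf1 cells and 0 higher, at a Benjamini-Hochberg adjusted p under 0.05. Over the 15191 genes tested, 22.9% were called lower and 22.0% higher. The members were chosen with earlier results of these data known, so these counts are descriptions only. At an unadjusted p under 0.05, 8 of all 10 members were lower and 0 higher, and edgeR's quasi-likelihood test likewise called 8 of 10 lower and 0 higher. The member added to the 7 in both counts was Zbp1, which passes a low-count filter only through the siCtl libraries. The median log2 fold change (siUpf1 over siCtl) of the 9 members was -0.41, against 0.00 over all genes tested. All 3 siUpf1 libraries lay below both siCtl libraries for 7 of the 9, and for Zbp1 as well, against 35.2% of all genes tested. None of the 10 had all siUpf1 libraries above both siCtl libraries, the pattern of 34.3% of the genes tested. The changes were uneven. The RIG-I-like receptors and Tlr3 fell to between 38.7% and 53.6% of their control level, Tbk1, Mavs and Trim25 fell less, and PKR (Eif2ak2) and Adar were not called.

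The 3 RIG-I-like receptors fell together. Ddx58 encodes RIG-I, the receptor that detects RNA ends, and lies at chr4:40203773-40239828 on the minus strand (GRCm38, ENSMUSG00000040296.15). It had 1172 and 1239 normalised counts in the siCtl libraries and 682, 607 and 650 in the siUpf1 libraries. The siUpf1 values were all well under the control values, and the means of 1205 ± 47.2 (SD, n = 2) and 646 ± 37.5 (SD, n = 3) did not come close to overlapping. The log2 fold change was -0.90 (SE 0.088, 95% interval -1.07 to -0.72, DESeq2 adjusted p = 7.08e-23), and 3.71% of the genes tested had a lower value.

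Ifih1, at chr2:62595798-62646255 on the minus strand (ENSMUSG00000026896.14), encodes MDA5, the receptor for long double-stranded RNA. The siCtl libraries had 242 and 266 normalised counts and the siUpf1 libraries 118, 113 and 111. The siUpf1 libraries lay within a narrow band, and that band was under the lower siCtl library. Its log2 fold change was -1.16 (SE 0.181, 95% interval -1.51 to -0.80, DESeq2 adjusted p = 1.26e-09), so that 44.8% of the control level was left.

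Dhx58 encodes LGP2, which has the helicase of the family but lacks the domains that signal to MAVS, and modulates the other two receptors. It lies at chr11:100694884-100704271 on the minus strand (ENSMUSG00000017830.15), and 141 bases of it overlap Dhx58os on the opposite strand. Its siCtl libraries had 357 and 343 normalised counts and its siUpf1 libraries 145, 120 and 142. This was the strongest fall among the 9 members tested, to 38.7% of control, with no overlap between the groups. On the log2 scale the change was -1.36 (SE 0.163, 95% interval -1.68 to -1.04, DESeq2 adjusted p = 8.33e-16), and 0.935% of the genes tested lay lower. The intervals of Dhx58 and Ddx58 overlapped slightly.

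The proportions among the receptors were also compared. Per kilobase of exon, Dhx58 stood at 0.657 and 0.597 of Ddx58 in the siCtl libraries and at 0.458, 0.427 and 0.470 in the siUpf1 libraries. Ifih1 stood at 0.178 and 0.185 of Ddx58 in siCtl cells and at 0.150, 0.161 and 0.147 in siUpf1 cells. In neither ratio did the groups overlap. The ratios are given as descriptions without a test, and the intervals of the fold changes of Ifih1 and Ddx58 overlapped.

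Among the other proteins that bind double-stranded RNA or unusual helices, the endosomal receptor and the Z-nucleic-acid sensor were low and the more abundant enzymes were not called. Tlr3, at chr8:45395665-45411080 on the minus strand (ENSMUSG00000031639.12), had 157 and 181 normalised counts in siCtl cells and 85.4, 64.0 and 89.1 in siUpf1 cells. The highest siUpf1 library was well under the lower siCtl library. The log2 fold change was -1.08 (SE 0.227, 95% interval -1.52 to -0.63, DESeq2 adjusted p = 1.02e-05), which left 47.0% of the control mean. On the opposite strand 381 bases of Tlr3 overlap Gm45542.

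Zbp1 encodes a sensor of left-handed (Z-form) nucleic acids that can start necroptosis. It lies at chr2:173206612-173218923 on the minus strand (ENSMUSG00000027514.14) and was the scarcest member, with 11 and 21 reads in the siCtl libraries and 3, 0 and 0 in the siUpf1 libraries. Its highest siUpf1 library had 2.67 normalised counts and its lower siCtl library 11.5, so the groups did not overlap. DESeq2's independent filter left it without an adjusted p-value (unadjusted p = 0.000793). The summed reads of 32 against 3 correspond, after scaling by the size factors, to 6.20% of control with an exact 95% interval of 1.22% to 19.8%, which covers counting error only. The 5 other settings that gave Zbp1 an adjusted p-value put it between 0.000389 and 0.00458, and it passes a low-count filter only through the siCtl libraries.

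Eif2ak2 encodes PKR, the kinase that phosphorylates eIF2α when it binds double-stranded RNA, and lies at chr17:78852564-78882573 on the minus strand (ENSMUSG00000024079.4). Of its length 221 bases overlap genes on the opposite strand, which the stranded counting keeps apart. It had 1234 and 1255 normalised counts in the siCtl libraries and 1244, 1113 and 1053 in the siUpf1 libraries. Replicate 1 of siUpf1 fell between both controls and the groups overlapped. Its log2 fold change was -0.13 (SE 0.084), with a 95% interval of -0.29 to 0.04 and a DESeq2 adjusted p of 0.212. That interval does not reach the values of Ddx58, Ifih1, Dhx58 or Tlr3, whose upper bounds were -0.63 or lower.

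Adar, at chr3:89715022-89753446 on the plus strand (ENSMUSG00000027951.16), encodes the enzyme that converts adenosine to inosine in double-stranded RNA. Its long form is interferon-inducible and its short form constitutive, and gene counts do not separate them. The siCtl libraries had 3785 and 3678 normalised counts and the siUpf1 libraries 3770, 3771 and 3894, with overlapping ranges. The log2 fold change was 0.03 (SE 0.050, 95% interval -0.07 to 0.13, DESeq2 adjusted p = 0.661). Adar thus had the tightest interval of the 9 members tested, and 1365 bases of it overlap Chrnb2 on the opposite strand.

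The adaptor, the ligase and the kinase were lower by less. Mavs, at chr2:131234063-131248025 on the plus strand (ENSMUSG00000037523.13), is the mitochondrial adaptor on which RIG-I and MDA5 converge. Its counts were 852 and 896 in siCtl cells and 662, 690 and 677 in siUpf1 cells. The groups were separate, and 77.3% of the control mean was left (log2 fold change -0.37, SE 0.090, 95% interval -0.55 to -0.20, DESeq2 adjusted p = 0.000141). Per kilobase of merged exons, Ddx58 was 0.652 and 0.656 of Mavs in siCtl cells and 0.489, 0.418 and 0.456 in siUpf1 cells. The intervals of their fold changes did not overlap. Which of them is higher in siCtl cells depends on the length used. Per kilobase of the longest transcript, Ddx58 was above Mavs in siCtl cells (means 311 and 286) and below it in siUpf1 cells (167 and 221).

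Tbk1, at chr10:121546455-121586787 on the minus strand (ENSMUSG00000020115.3), encodes the kinase that phosphorylates IRF3. It had 3055 and 3135 normalised counts in the siCtl libraries and 2359, 2259 and 2364 in the siUpf1 libraries, with no overlap. The mean fell from 3095 ± 56.9 (SD, n = 2) to 2327 ± 59.1 (SD, n = 3), or to 75.2% (log2 fold change -0.41, SE 0.056, 95% interval -0.52 to -0.30, DESeq2 adjusted p = 3.12e-12). The spread between libraries was small, so that this modest fall passed the threshold by a wide margin.

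Trim25, at chr11:88999376-89020293 on the plus strand (ENSMUSG00000000275.16), encodes a ubiquitin ligase that modifies RIG-I. The siCtl libraries had 2863 and 2663 normalised counts and the siUpf1 libraries 2529, 2397 and 2453. The groups did not overlap, but the gap between the lower siCtl and the highest siUpf1 library was smaller than the gap between both controls. Its log2 fold change was -0.17 (SE 0.059, 95% interval -0.28 to -0.05, DESeq2 adjusted p = 0.0135). The call was lost without siCtl replicate 1 (adjusted p = 0.286), without siUpf1 replicate 2 (0.0653), without siUpf1 replicate 3 (0.0642) and with scaling by total counts (0.0655).

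**Figure D1:**
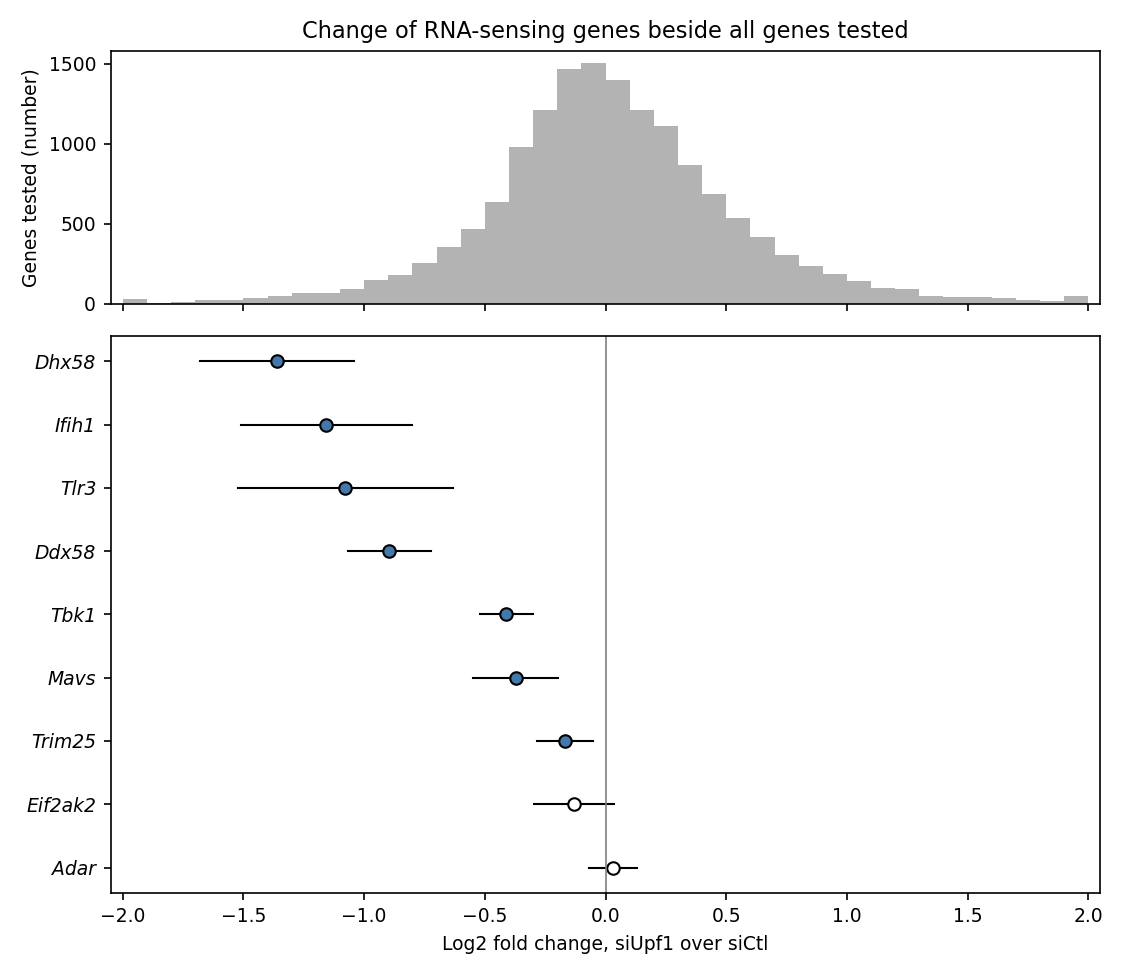
Below, the log2 fold change (siUpf1 over siCtl) of the 9 members with an adjusted p-value, with 95% intervals from DESeq2's standard error, and above on the same axis a histogram of all 15191 genes tested, whose outermost bins also hold values beyond -2 and 2. Filled points are called lower at an adjusted p under 0.05, and Dhx58 at -1.36 is farthest from 0 while the intervals of Eif2ak2 and Adar include 0.

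Divided by exon length, the levels ranked the members from common to rare components. In siCtl cells Tbk1 was highest at 792 normalised counts per kilobase of merged exons, followed by Trim25 at 480, Adar at 460, Mavs at 261, Eif2ak2 at 243, Ddx58 at 171 and Dhx58 at 107. Tlr3 at 32.5, Ifih1 at 31.1 and Zbp1 at 4.44 were the lowest. The library ranges of Trim25 and Adar overlapped, as did those of Tlr3 and Ifih1, so neither order is resolved. In siUpf1 cells Tbk1 (595), Adar (470), Trim25 (428), Eif2ak2 (222) and Mavs (202) came first, and Ddx58 (91.7), Dhx58 (41.5), Tlr3 (15.3), Ifih1 (14.0) and Zbp1 (0.252) kept the lower ranks. There the ranges of Eif2ak2 and Mavs overlapped, as did those of Tlr3 and Ifih1. The 5 members with the lowest control levels per kilobase were the 4 with the strongest called falls and Zbp1. With the longest transcript in place of merged exons as length, Ddx58 ranked 4 and that no longer held. On merged exons, the ratio of PKR to RIG-I mRNA per kilobase went from 1.45 and 1.40 in the siCtl libraries to 2.51, 2.53 and 2.23 in the siUpf1 libraries. That of Tlr3 to Ddx58 overlapped between groups (0.182 and 0.198 against 0.169, 0.143 and 0.186). Per kilobase of the longest transcript, Eif2ak2 was below Ddx58 in siCtl cells (means 288 and 311) and above it in siUpf1 cells (264 and 167).

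The promoters of the members are shown because interferon-induced genes carry a short repeat that interferon regulatory factors and ISGF3 bind. RefSeq promoter windows (GRCm38.p6, 250 bases before to 50 after each gene's start) were found for 8 of the 10 members; Dhx58 and Zbp1 were not analysed here. The core of the interferon-stimulated response element, GAAA repeated after any 2 bases, was searched on both strands. It occurred in 3 of the 8, Ddx58, Ifih1 and Eif2ak2, and in 3.99% of the 27025 genes in the table. Their windows, read along each gene's strand with matches to this repeat or to the shorter AANNGAAA in capitals, are:
Ddx58, chr4:40239776-40240075, minus strand: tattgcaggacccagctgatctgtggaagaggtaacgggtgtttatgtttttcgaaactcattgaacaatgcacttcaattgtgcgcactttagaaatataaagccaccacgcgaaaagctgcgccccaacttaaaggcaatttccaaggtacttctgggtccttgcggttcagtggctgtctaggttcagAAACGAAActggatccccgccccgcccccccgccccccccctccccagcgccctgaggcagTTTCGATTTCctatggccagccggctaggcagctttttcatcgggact
Ifih1, chr2:62646206-62646505, minus strand: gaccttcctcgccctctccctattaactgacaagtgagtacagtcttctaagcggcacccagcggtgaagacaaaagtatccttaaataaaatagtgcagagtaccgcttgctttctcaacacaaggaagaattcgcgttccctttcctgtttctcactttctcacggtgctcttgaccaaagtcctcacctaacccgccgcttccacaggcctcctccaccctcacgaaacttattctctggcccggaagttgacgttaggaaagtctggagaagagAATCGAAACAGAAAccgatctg
Eif2ak2, chr17:78882523-78882822, minus strand: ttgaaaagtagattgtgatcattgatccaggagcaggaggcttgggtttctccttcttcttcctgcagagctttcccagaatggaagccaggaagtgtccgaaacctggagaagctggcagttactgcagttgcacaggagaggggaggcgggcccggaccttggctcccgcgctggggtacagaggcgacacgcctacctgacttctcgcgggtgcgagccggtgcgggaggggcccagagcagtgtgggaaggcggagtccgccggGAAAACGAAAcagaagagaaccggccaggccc
In all 3 the longer match lay just downstream of the start, at bases 3 to 12 (on the opposite strand) in Ddx58, 33 to 42 in Ifih1 and 19 to 28 in Eif2ak2. Ddx58 and Ifih1 were among the members that fell most and Eif2ak2 was not called, so members with the repeat were found on both sides of the call.

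The shorter letters AANNGAAA, which lie inside every match of the longer repeat and were searched after it, occurred in 6 of the 8 members and in 26.7% of all genes in the table. Besides the 3 above these were Tlr3, Trim25 and, at the last of 3 listed starts, Adar, shown here because they carry only the shorter match:
Tlr3, chr8:45410420-45410449, minus strand: agtgaatggcTTTCACTTtgtttagacaca
Trim25, chr11:88999389-88999418, plus strand: tcctgttcagTTTCGATTccttcctcgctg
Adar, chr3:89730737-89730766, plus strand: cttttcaaggAAACGAAAgtgaactctggg
Mavs and Tbk1, both called lower, had neither. Over the tested genes in the promoter table, 35.2% of the 375 with the longer repeat were called lower and 22.1% higher (median log2 fold change -0.09), against 25.4% and 23.9% of the 10334 without it (median -0.01). Of the 2203 tested genes with the shorter letters, 28.1% were called lower and 22.4% higher (median -0.05). Of the 8506 without them, the shares were 25.1% and 24.3% (median -0.01). These shares are descriptions, and a match is neither a binding site nor a cause.

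**Figure D2:**
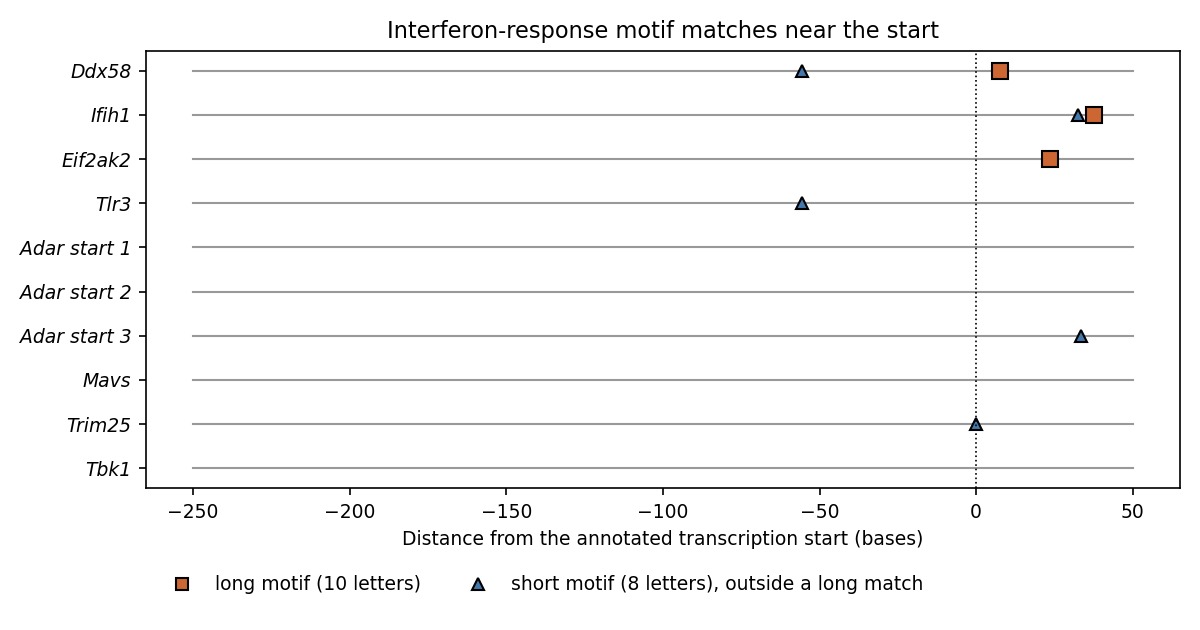
Position of matches to the longer repeat and to AANNGAAA in the promoter windows of the 8 members in the RefSeq table, with 3 starts for Adar, in bases from the annotated start. The longer repeat (squares) lies within 50 bases after the start in Ddx58, Ifih1 and Eif2ak2, and Mavs and Tbk1 have neither.

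The surrounding pathway was read from 8 lists with 115 genes, of which 99 received an adjusted p-value. Of these, 21 were called higher, 45 lower and 33 neither, with a median log2 fold change of -0.15. These counts stand beside 22.9% lower and 22.0% higher over all genes tested, and no list was tested against the other genes. Of the 22 other nucleic acid sensors and cofactors, 10 of the 15 tested were lower and 2 higher (median -0.26). Ddx60, a helicase that supports RIG-I, fell from 173 ± 10.7 to 85.8 ± 26.5 normalised counts (SD, n = 2 and 3), a log2 fold change of -0.99. Tmem173, which encodes STING, the adaptor of cytosolic DNA sensing, fell by 0.61 on the log2 scale. The helicase genes Dhx33 and Dhx36 rose by 0.38 and 0.26.

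In the relay from MAVS and TRIF to IRF3 and NF-κB, 6 of 19 genes were lower and 4 higher, shares near those over all genes tested (22.9% and 22.0%), with a median of 0.01. Ikbke, which encodes the kinase that acts beside TBK1, had 61.4 ± 3.86 and 34.9 ± 7.17 normalised counts (log2 fold change -0.82, DESeq2 adjusted p = 0.0441), and its call was lost when any 1 of the 5 libraries was left out (0.0636 to 0.276). Irf7, the interferon-inducible relative of Irf3, was at -0.66 and lost its call without siCtl replicate 3 (adjusted p = 0.0916). Traf3, a ubiquitin ligase downstream of MAVS, rose by 0.58, and Ikbkg (NEMO) was at 0.28 and lost its call without siCtl replicate 3 (0.269) or siUpf1 replicate 3 (0.0752). Irf3, Rela and Nfkb1, the factors that TBK1 and NF-κB signalling lead to, were named after their values were seen. Irf3 was at -0.39 and lost its call without siCtl replicate 3 (DESeq2 adjusted p = 0.0664), Rela was called lower at -0.53, and Nfkb1 was at 0.05 (adjusted p = 0.603). Without siCtl replicate 3 the relay had 2 genes lower and 2 higher, and without siUpf1 replicate 3 it had 2 higher.

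Negative regulators of the RIG-I-like receptors were called in both directions, with 10 of 24 lower, 7 higher and a median of -0.14. The shares over all genes tested were 22.9% lower and 22.0% higher. Usp15 and Cyld, deubiquitinases that act on RIG-I signalling, rose by 1.08 and 0.73. Nlrc5, which is also the transactivator of MHC class I genes, fell by 1.29 and the ubiquitin ligase gene Smurf2 by 1.03. Usp15 went from 2474 ± 126 to 5212 ± 407 normalised counts, the strongest rise in the list.

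The list of eIF2α kinases, phosphatases and the translation block was called lower in 6 of 12 genes and higher in 3 (median -0.19). Of all genes tested, 22.9% were lower and 22.0% higher. The list is not particular to PKR, since it also holds the other kinase genes Eif2ak1, Eif2ak3 and Eif2ak4, none of them called. Eif2s2 and Eif2s3x, which encode subunits of the eIF2 complex whose α subunit PKR phosphorylates, fell by 0.75 and 0.58. The adaptor gene Nck1 and Ppp1r15b, which encodes a subunit of the phosphatase that reverses the phosphorylation, rose by 0.54 and 0.39. Other double-stranded RNA-binding proteins were called lower in 4 of 12 and higher in 3 (median -0.02), shares near those over all genes tested. Dicer1, the nuclease that makes microRNAs, fell from 6015 ± 16.5 to 2694 ± 93.1 normalised counts (-1.16) and its partner Tarbp2 fell by 0.43. Strbp and Adarb1, the second editing enzyme gene, rose by 1.12 and 0.56, so Adarb1 was higher in siUpf1 cells whereas Adar was not called. Without siCtl replicate 1, and also without siCtl replicate 3, 2 genes of this list were called lower.

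The partners of ZBP1 in cell death were lower where they were called, 3 of the 4 tested, with 0 higher by DESeq2, at an unadjusted p under 0.05 or by edgeR (median -0.54). DESeq2 called 22.9% of all genes tested lower and 22.0% higher. Ripk1, the kinase that joins death receptors to NF-κB and necroptosis, fell to 363 from 727 normalised counts (DESeq2 adjusted p = 7.93e-19). Mlkl, which encodes the executor of necroptosis, fell by 0.58. Casp8 was at -0.50 (DESeq2 adjusted p = 0.0322) and lost its call when any 1 library was left out (0.0718 to 0.240), and Fadd was at -0.12 (adjusted p = 0.447). Ripk3, the kinase that ZBP1 engages, had no reads in any library.

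From the interferon receptor to ISGF3, 4 of 9 genes were lower and 1 higher (median -0.14). The shares over all genes tested were 22.9% and 22.0%. Stat2, a subunit of ISGF3, fell from 3188 ± 117 to 1979 ± 49.9 normalised counts (-0.69) and Irf1 fell by 0.74. Irf9, which encodes another ISGF3 subunit and was named after its value was seen, was at -0.27 (DESeq2 adjusted p = 0.0129) and lost its call without siCtl replicate 1, siCtl replicate 3, siUpf1 replicate 2 or siUpf1 replicate 3 (0.0566 to 0.193). Ifnar1 was at 0.21 and lost its call when any 1 library was left out (0.0553 to 0.166).

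Of 9 interferon and chemokine genes that RNA sensing switches on, Ifnb1, Ifna4, Ifnl2 and Ifnl3 had no reads in any of the 5 libraries, and 4 were tested. Ccl5, a chemokine gene driven by IRF3 and NF-κB, fell from 133 ± 9.93 to 18.6 ± 1.63 normalised counts (-2.84). Cxcl10, an interferon-induced chemokine gene, fell from 594 ± 42.8 to 219 ± 17.4 (-1.44). Il6, a cytokine gene driven by NF-κB, rose by 0.85, and Ccl2 was at -0.65 (DESeq2 adjusted p = 0.296). Tnf, at 4.40 ± 1.78 and 0.297 ± 0.515 normalised counts, received no adjusted p-value. The chemokine genes that fell did so in cells without reads of the type I and type III interferon genes listed here.

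**Figure D3:**
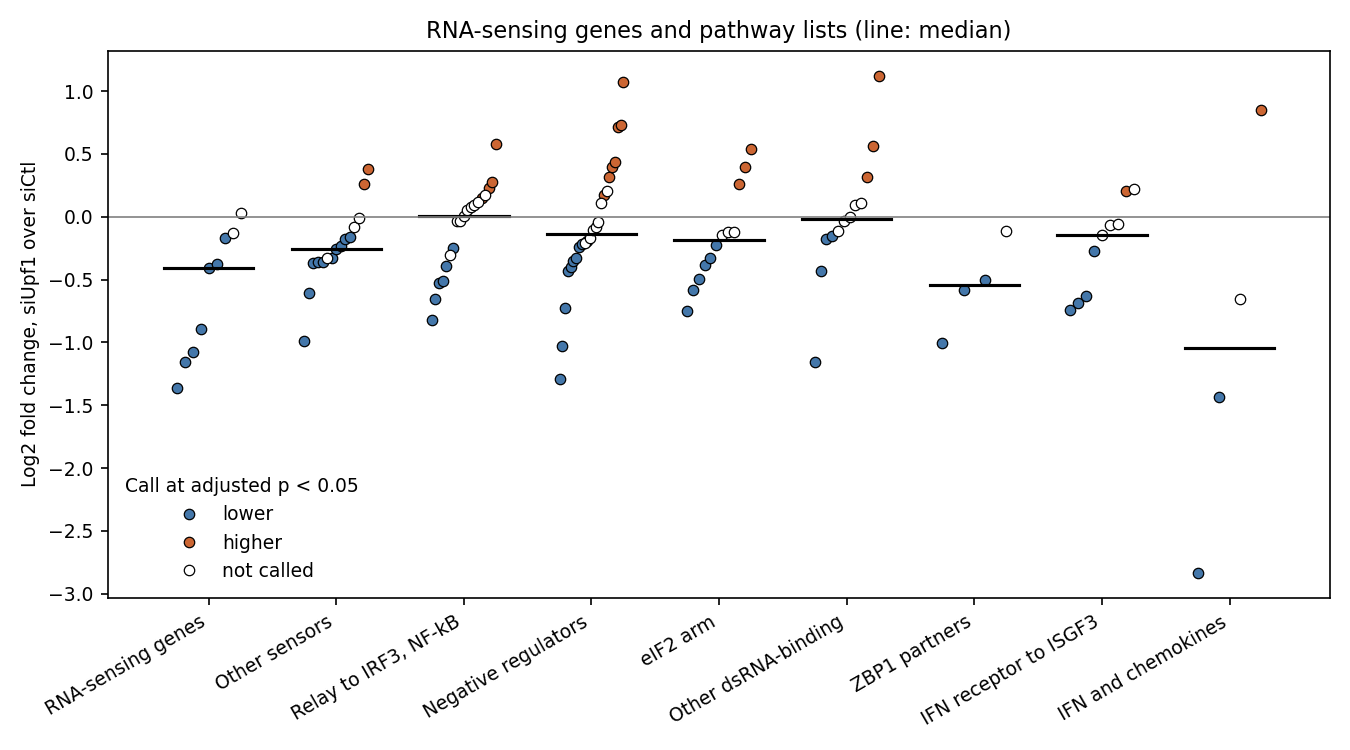
Log2 fold change (siUpf1 over siCtl) of the tested RNA-sensing genes and of every tested gene in the 8 pathway lists, with a line for each median and the fill showing the call at an adjusted p under 0.05. Called genes lie on both sides of 0 in each list except the ZBP1 partners, where 3 are called lower, and the RNA-sensing genes, where 7 are.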

How the data were processed

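Poly(A)+ RNA-seq of 5 N2A libraries was analysed. Raw counts of reads per gene were deposited. The authors trimmed reads with fastp, mapped them to GRCm38.p6 with STAR 2.7.0f and counted exonic reads on the reverse strand with featureCounts (Subread 1.6.4) over GENCODE M22 or M25. Counts of 20402205 to 27717594 per library limit the precision of scarce genes most. The interval on the summed reads of Zbp1 covers counting error only. The intervals of the log2 fold changes come from DESeq2's standard errors, which also take in the spread between libraries.

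Libraries were grouped by their labels. All genes were fitted with DESeq2 1.42.0 in R 4.3.3 (Wald test, group as the only term, independent filtering, Benjamini-Hochberg, call at an adjusted p under 0.05), the study's tool, and edgeR 4.0.16 was an alternative. Other alternatives were size factors, low-count filters, a call threshold of 0.01, a replicate block, each library left out in turn and gene length. The DESeq2 and edgeR steps were tested on simulated data. The members and lists were chosen with earlier results of these data known. Text names all members, Upf1, up to 2 called genes at each extreme of each list, and every gene of lists with 5 or fewer tested. One symbol stored as a date was matched by identifier. Exon lengths and gene positions came from GENCODE M21 (GRCm38) and promoters from RefSeq (GRCm38.p6). Some items are not reported here.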

Additional observations from a re-analysis of the deposited data

How the results depend on the processing

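Of 120 member values under 12 alternatives, 103 kept their direction and their side of the threshold, 6 for Zbp1 had no adjusted p and moved by less than 1 SE, 5 for Trim25 lost the call, 5 gave Zbp1 one, 1 (Zbp1 without siUpf1 replicate 1, log2 fold change -6.33, with no adjusted p) moved, and 0 reversed. Between 6 and 8 members were called lower and 0 higher. Same-numbered libraries had correlations of deviations from their group means of -0.083 and -0.074. With only 2 siCtl libraries these deviations mirror each other, so the values cannot settle whether replicate numbers mark paired experiments. No siCtl partner exists for siUpf1 replicate 2, so under the replicate block that library does not inform the group difference. With the replicate block, 1957 genes were higher and 1962 lower, against 3341 and 3481 without it, Trim25 had an adjusted p of 0.299 and 29 pathway genes were lower in place of 45. Each library left out in turn gave 32 to 40 pathway genes lower and 16 to 20 higher. The median of the relay list, 0.01 (0.00678), changed sign with TMM factors (-0.00244), with the replicate block (-0.0193) and without siCtl replicate 3, siUpf1 replicate 1 or siUpf1 replicate 2 (-0.0181 to 0.0103 over all libraries left out in turn). That of the other double-stranded RNA-binding proteins, -0.0198, changed sign with total-count factors (0.00158) and without independent filtering (0.0445). The cause was not tested. With the longest transcript as length, ranks by level became 2 for Adar, 3 for Trim25, 4 for Ddx58, 5 for Eif2ak2, 6 for Mavs, 8 for Ifih1 and 9 for Tlr3. Of 420 values for 35 named pathway genes, 387 stayed on their side of the threshold, 33 lost a call and 0 reversed. Depth limits Zbp1 most.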
